A study of Drosophila melanogaster with 2 samples.

Results

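Far intronic peaks are the sites at which the CG8765-eGFP fusion protein was recovered deep inside genes, away from any promoter. Of 2132 peaks on the chromosome arms in the stricter of the joint peak lists, 327 met this description, a share of 15.3% (13.8 to 16.9, exact binomial 95% interval). A peak was taken when its summit, the base of highest signal, lay inside an annotated gene, in no annotated exon, and more than 2000 bp from the nearest transcription start site (TSS). Within that list the rule used position alone, so signal, support by each replicate and base sequence did not enter this step. The list itself was thresholded by the authors after the replicates' peaks were matched. Signal and replicate support are therefore not independent of membership. The data are a chromatin immunoprecipitation sequencing (ChIP-seq) experiment on whole Drosophila melanogaster embryos aged 0 to 8 h from the strain CG8765-GFP, a transgenic line expressing CG8765 fused to eGFP. Chromatin was sheared to fragments of 200 to 800 bp and precipitated with an antibody against GFP. The series holds 2 biological replicates of this 1 group, with no second genotype, age or treatment, and the control listed for the experiment was not analysed here. The labels name only the tagged line, record no sex, and pool all tissues and 8 h of development, so neither the cells that bind a site nor the number of X chromosomes per embryo can be read from these data. Distances close to the limit were continuous: the nearest members inside it were peaks in CG43658 at 2004 bp (signal 106.0) and CG1677 at 2007 bp (145.4), and the nearest peaks outside it were in hiw at 1999 bp (75.6) and tna at 1996 bp (188.5).

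Introns are removed from the transcript, but their DNA often holds enhancers, short stretches that bind transcription factors and raise or lower transcription from a promoter at a distance. In Drosophila, genes that control development tend to have long introns, and the first intron often carries many of these elements. Promoters have their own recurrent sequences, such as the DNA replication-related element bound by DREF and the motif bound by M1BP, which are typical of broadly expressed genes.

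The strongest far intronic sites are shown first because they carry the deposited signal most clearly. Each sequence covers 50 bp either side of the summit base, from the plus strand of dm6, written 5′ to 3′ and read from the RefSeq copy of that assembly. Capitals mark CACTG or its reverse complement CAGTG, the string around which the sequence results turn.
Tlk, chrX:3742163-3742263: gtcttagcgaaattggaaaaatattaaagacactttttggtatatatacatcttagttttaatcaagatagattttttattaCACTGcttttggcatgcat
CG32486, chr3L:3060750-3060850: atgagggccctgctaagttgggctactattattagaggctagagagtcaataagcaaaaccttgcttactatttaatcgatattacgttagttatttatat
fz, chr3L:14304017-14304117: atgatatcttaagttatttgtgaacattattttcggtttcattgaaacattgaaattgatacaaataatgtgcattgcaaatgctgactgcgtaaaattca
aop, chr2L:2163638-2163738: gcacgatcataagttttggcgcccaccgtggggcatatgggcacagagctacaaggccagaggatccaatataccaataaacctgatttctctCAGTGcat
Ptp61F, chr3L:1368300-1368400: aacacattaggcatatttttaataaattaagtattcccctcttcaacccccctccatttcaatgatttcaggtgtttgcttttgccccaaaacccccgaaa
CG13894, chr3L:696909-697009: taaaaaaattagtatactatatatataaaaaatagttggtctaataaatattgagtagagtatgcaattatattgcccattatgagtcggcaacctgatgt
These 6 members have the highest signals among those called in both replicates, with members of 1 arm not shown. Their G+C content ran from 25.7% in CG13894 to 49.5% in aop. This window held the string in 2 of the 6, Tlk and aop, both times towards one edge. To show it with more context, 201 bp around the summit are given for 3 further members. These 3 were chosen after their sequences were seen, as the members with the highest remaining signal that hold TACACTG in genes not yet shown.
CG34417, chrX:6549774-6549974: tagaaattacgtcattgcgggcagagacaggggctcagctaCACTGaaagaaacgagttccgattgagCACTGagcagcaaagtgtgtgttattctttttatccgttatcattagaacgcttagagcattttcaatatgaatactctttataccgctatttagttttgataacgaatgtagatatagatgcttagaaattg
mew, chrX:13234199-13234399: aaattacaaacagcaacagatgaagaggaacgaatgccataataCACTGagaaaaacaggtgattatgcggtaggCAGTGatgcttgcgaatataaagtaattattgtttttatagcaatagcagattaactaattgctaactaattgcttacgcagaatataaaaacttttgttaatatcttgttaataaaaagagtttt
CG33158, chr3L:16480458-16480658: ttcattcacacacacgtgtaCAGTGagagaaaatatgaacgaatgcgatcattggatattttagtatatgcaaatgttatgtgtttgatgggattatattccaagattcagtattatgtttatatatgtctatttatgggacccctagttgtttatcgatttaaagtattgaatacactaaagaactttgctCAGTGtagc
In all 3 windows the strings stood to the side of the middle base, and in mew the first copy is followed within a few bases by a run of A.

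The 5-base string CACTG was present, on either strand, within 100 bp of the summit of 200 of the 327 far intronic peaks (61.2%, 55.6 to 66.5). Windows of the same 201 bp centred 500 bp to the left of each summit held it in 97 cases (29.7%), and those 500 bp to the right in 96 cases (29.4%). Among 194303 windows of this length that tile the eligible intronic sequence outside all thresholded peaks, 27.1% held it. At least 2 copies occurred in 70 of the summit windows (21.4%) and in 16 of the left flanks (4.89%). With 2 more bases in front, TACACTG was found at 51 summits (15.6%), in 5 left flanks (1.53%) and in 1.91% of the tiling windows. The string was singled out after the 6-base table described next had been seen, so these shares are a description with no test. Far intronic peaks that appear only in the less strict joint list, and so took no part in that choice, allow 1 test: CACTG was present at 86 of 152 summits (56.6%) and in 48 of their left flanks (31.6%), with 57 peaks holding it only at the summit and 19 only in the flank (exact McNemar test, two-sided, p = 1.48e-05).

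The string was densest to the side of the summit, not at it. Within 25 bp of the summit it occurred 2.50 times per kb, rising to 5.32 at 50 to 74 bp and 6.79 at 75 to 99 bp, and falling back to 1.47 at 175 to 199 bp. TSS peaks, whose summits lie within 500 bp of a start site, showed the same position with a lower crest, 4.07 per kb at 75 to 99 bp. Between 50 and 125 bp from the summit, 148 of 266 occurrences at far intronic peaks were written towards the summit (55.6%, 49.4 to 61.7), an interval that includes an even split. The bases that follow the string were also uneven, as counted in windows of 120 bp either side of far intronic and TSS summits and in the 201 bp tiling windows. Counting from the first base after the final G, A made up 51.1%, 52.6% and 48.6% of positions 5, 6 and 7 over 323 occurrences, against 28.9%, 29.3% and 30.03% in the tiling windows. All of these positions were A in 106 of the 323 occurrences (32.8%, 27.7 to 38.2), in 11.8% of 882 occurrences at TSS peaks and in 6.14% of 59684 in the tiling windows. The second base in front of the string was T in 53.3% of occurrences, 29.6% at TSS peaks and 31.5% in the tiling windows.

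**Figure D1:**
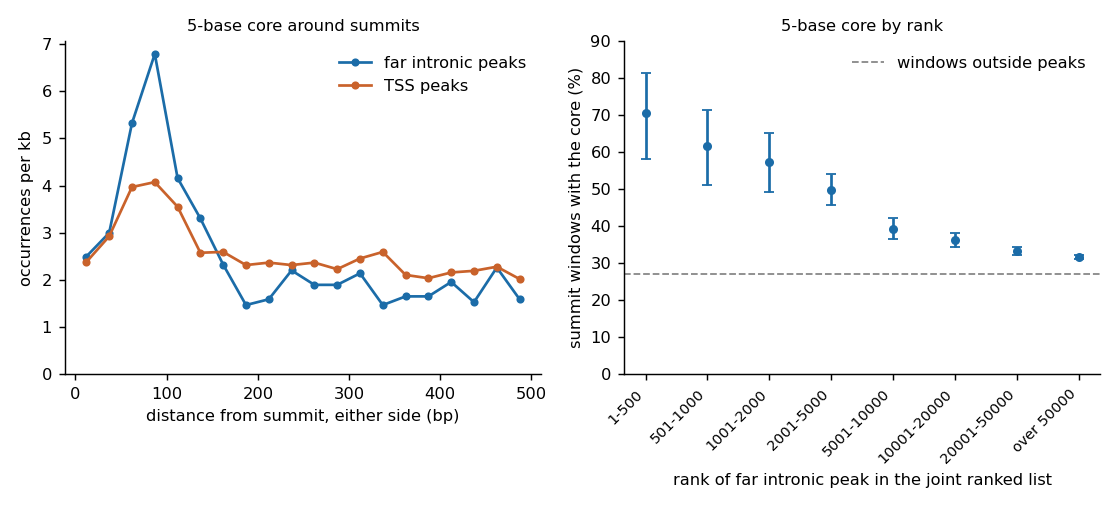
Left, occurrences of the 5-base core per kb in 25 bp steps of distance from the summit, for far intronic and TSS peaks. Right, share of far intronic peaks in the unthresholded joint ranked list whose 201 bp summit window holds the core, by rank (1 is the highest signal), with exact binomial 95% intervals. The core crests at 75 to 99 bp from far intronic summits, and its share falls from 70.8% in the first rank class to 31.6% in the last, with the tiling windows at 27.1% as a dashed line. The first rank classes are largely peaks of the stricter list, whose far intronic members led to the core.

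The share of peaks with the string fell with rank, but the first rank classes are largely the peaks that led to the string. In the joint ranked list, which is not thresholded, 65 of the first 500 peaks were far intronic and 46 of them held CACTG (70.8%, 58.2 to 81.4). The share was 61.7% at ranks 501 to 1000, 57.4% at 1001 to 2000, 49.9% at 2001 to 5000 and 39.3% at 5001 to 10000, and 31.6% of 26924 peaks beyond rank 50000. Peaks of the stricter list overlapped 62 of the 65, 87 of 94 at ranks 501 to 1000 and 115 of 162 at 1001 to 2000. They overlapped 52 of 583 at ranks 2001 to 5000 and 3 of 1175 at 5001 to 10000. The replicates' own lists gave like values, 62.5% of 344 far intronic peaks in replicate 1 and 59.9% of 242 in replicate 2. Of the 327 members, 236 overlapped the list of replicate 1 and 182 that of replicate 2. Shared sites have the same sequence, so these values are not an independent check. Members called in both replicates held it in 63.8% of cases, those called in replicate 1 only in 64.2%, in replicate 2 only in 61.0%, and in neither in 48.0%. The other kinds of peak placed away from promoters were close to these values, with 61.8% of 304 intergenic distal summits (over 500 bp from a TSS) and 59.0% of 273 intronic summits at 500 to 2000 bp from a TSS, whereas TSS summits stood at 47.0% of 1149. The string was thus not confined to far intronic sites. The longer TACACTG was at 13.8% of intergenic distal summits, 8.42% of intronic summits nearer a TSS and 5.22% of TSS summits. At far intronic summits its share was 15.6%. TACACT was at 25.7% of intergenic distal and 24.5% of far intronic summits. The bases beside CACTG were not counted at intergenic distal peaks or intronic peaks nearer a TSS. X-linked members held CACTG in 58.9% and the others in 62.0% of cases.

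All 6-base strings, each counted with its reverse complement, were compared between summit and left flank with exact McNemar tests adjusted by Benjamini-Hochberg over the whole table. Of these, 65 were called at an adjusted p under 0.05, or 3.12% of the table, 47 more frequent at the summit and 18 less. The string with the smallest p was AGTGTA, which reads TACACT on the other strand: it occurred at 24.5% of summits and 4.89% of flanks (adjusted p = 6.60e-09 by exact McNemar test), present only at the summit in 77 peaks and only in the flank in 13. ACACTG and ACAGTG were at 24.5% and 23.5% of summits against 7.65% and 7.34% of flanks. Both contain the 5-base string, as do 6 in all of the 47 strings called more frequent, out of 8 that could. AAATAT (51.4% against 28.7%) and TATTAA (34.3% against 15.3%) belong to a second set of 14 called strings made of A and T alone. Among the less frequent, AATGCG fell from 17.1% of flanks to 6.42% of summits, GCCAAA from 25.4% to 12.5%, GATTCC from 8.87% to 1.83%, CCAAGC from 11.3% to 3.36% and CCAGCC from 11.9% to 3.98%. In windows of 50 bp either side, which leave out the crest at 75 to 99 bp, AGTGTA was no longer called (adjusted p = 0.0522 by exact McNemar test). The same held for ACACTG and the string ACAGTG (adjusted p = 0.245 and 0.418 by exact McNemar test). AAATAT and TATTAA were called under all 11 alternatives to the main settings, AGTGTA under 10, and the 5 less frequent strings under 3 to 5. In the replicates' own lists AGTGTA was called in both, with adjusted p = 3.75e-05 in replicate 2 and 1.15e-13 in replicate 1 by exact McNemar test. Those lists share many sites with the members, so these calls are not an independent check.

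The base composition around far intronic summits had a narrow trough between raised shoulders. Mean G+C over the 327 peaks, in steps of 50 bp, was 34.1% at the summit, 46.3% at 250 bp to its left and 46.0% at 150 bp to its right, and 40.03% and 40.5% at 1000 bp on the left and right. TSS peaks had a trough of like depth, 36.7% at the summit, but no shoulders, with 43.4% and 43.3% at 250 bp and 45.04% and 45.3% at 1000 bp. Peak by peak, the median G+C of the 201 bp summit window was 35.8% and that of the 2 flanks together 41.8%. The summit was lower than the flanks in 235 peaks and higher in 91, a share of 71.9% (66.7 to 76.7, exact two-sided sign test over peaks, p = 7.97e-16). This trough and the excess of strings made of A and T occur at the same place, and the part of one in the other was not tested. Median G+C of the summit window was 36.8% for TSS peaks and for intronic peaks nearer a TSS, and 36.3% for intergenic distal peaks. A low value at the summit was thus not confined to far intronic sites. The profile by distance was drawn for far intronic and TSS peaks only.

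**Figure D2:**
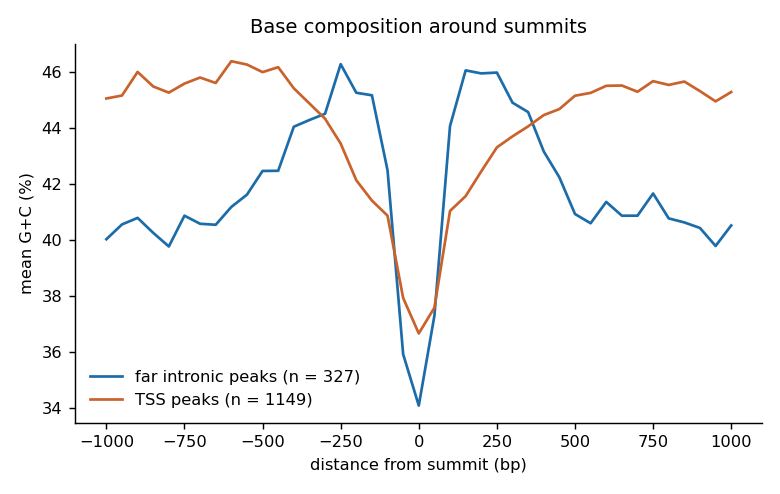
Mean G+C (%) against distance from the summit (bp) for 327 far intronic and 1149 TSS peaks. Far intronic peaks fall from shoulders of about 46% to 34.1% at the summit and settle near 40% at the edges, while TSS peaks lack the shoulders. Other kinds of peak were not profiled.

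A list of 30 short strings, known from promoters, from factor binding sites or as simple repeats, was compared with promoter summits and with the peaks' own flanks. These comparisons differ in test and in numbers of peaks, so their counts of calls do not show which difference is larger. Against TSS summits 9 of the 30 were called by Fisher's exact test with Benjamini-Hochberg adjustment, or 30% of those tested, 6 less and 3 more frequent at far intronic summits. The DNA replication-related element TATCGATA was at 0 of 327 far intronic summits and at 7.48% of TSS summits (adjusted p = 6.80e-09 by Fisher's exact test). CGATA, which is part of it and is bound by BEAF-32, was at 19.0% against 37.2%, and the M1BP string GGTCACAC at 0% against 3.22%. CAGCNCT, a core promoter string, stood at 5.505% against 14.97%, the E-box CAGCTG at 6.73% against 11.4%, and GGCGC, part of the Mad and Medea site, at 12.8% against 19.1%. GGCGC was at 19.1% of intergenic distal summits and CAGCTG at 10.3% of intronic summits nearer a TSS, whereas TATCGATA was at under 1% of both kinds. CGATA was at 19.3% of the members' left flanks, 19.9% of tiling windows and 19.7% of intergenic distal summits. CAGCNCT was at 6.12%, 6.81% and 5.59% of these. The far intronic shares of CGATA and CAGCNCT were thus close to those of sequence outside peaks. The strings more frequent at far intronic summits were TGAGTG, bound by Zeste (16.2% against 8.36%), AAAAAAAA (20.2% against 11.9%) and CAGGTAG, bound by the early embryonic activator Zelda (3.06% against 0.870%, adjusted p = 0.0231 by Fisher's exact test). In the left flanks of the same peaks CAGGTAG was also at 3.06% and AAAAAAAA at 17.4%, and neither was called against them. The calls of TATCGATA and CGATA held under all 9 alternatives, those of CAGCTG and GGCGC under 3 and that of CAGGTAG under 2. In the list of replicate 2, 3 of the 30 strings were called.

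Against their own flanks, 1 of the 30 strings was called, 3.33% of those tested: GCCAT, the core of the Pho site, was at 22.0% of summits and 34.9% of flanks, and 35.7% of tiling windows (adjusted p = 0.00776 by exact McNemar test). It was no longer called in the list of replicate 2, in members above the median signal, over 5000 bp from a TSS, or in narrower windows, where adjusted p by the same exact test ran from 0.0801 to 0.825. TATAAA was at 32.1% of summits and 22.0% of flanks (adjusted p = 0.0560 by exact McNemar test), and TGAGTG at 16.2% and 9.17% (0.0642). Each string was searched on both strands, overlapping matches between strings were counted for each, and a window without a match says nothing about the factor named.

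The 15 strongest members lay in 14 genes, among them several for signalling proteins and transcription factors and several known only by a CG number. The highest signal, 766.7 in the joint list, was in Tlk, the Tousled-like kinase that acts in chromatin assembly, at a summit ranked 20 in replicate 1 and 28 in replicate 2. It was followed by babos (554.2, ranks 29 and 88), CG32486 (526.0, ranks 88 and 51) and fz (394.2, ranks 62 and 212), which encodes the Wnt and planar polarity receptor Frizzled. All of these summits stood near the head of each replicate's ranked list. Of the Ets family repressor aop, which acts in receptor tyrosine kinase signalling, 1 peak had a signal of 376.4 and ranks 53 and 271, and another 266.3 and ranks 132 and 486. Hr3, a nuclear receptor of the ecdysone response, had 364.9 (ranks 246 and 96). The phosphatase gene Ptp61F had 357.1 (99 and 197), and CG13894 had 354.2 (129 and 157). The remaining members among the 15 highest were in cv-2, whose product binds BMP ligands (350.9), sbb, a transcriptional corepressor (339.5 and 336.0), grh, the epidermal transcription factor Grainyhead (339.1), CG34417 (325.7), CG12769 (312.1) and CG32264 (302.6). All 15 were in the thresholded lists of both replicates. Their ranks ran from 20 to 246 in replicate 1 and from 28 to 327 in replicate 2, 14 of the 15 lay in a first intron, and 10 held CACTG within 100 bp. Of the 14 genes, 4 also had a TSS peak, namely Tlk, CG32486, sbb and grh.

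Over all members the signal ran from 2.84 to 766.7 with a median of 104.8 and quartiles of 78.3 and 150.7. The median was 107.6 for TSS peaks, 103.1 for intronic peaks nearer a TSS and 102.7 for intergenic distal peaks. The upper end differed, since the highest TSS peak reached 3244. Above the list's median of 104.7 were 164 members (50.2%) and 51.7% of TSS peaks, an odds ratio of 0.940 (0.730 to 1.21, adjusted p = 0.682 by Fisher's exact test over 3 comparisons between kinds of peak). That comparison depended on the replicate, with an odds ratio of 0.525 within replicate 2's own list (adjusted p = 3.18e-05, Fisher's exact test) and 1.09 within that of replicate 1 (0.762). The 9 members with a signal under 20 all overlapped another peak of the list, and 25 members did so in all. Widths ran from 81 to 324 bp, and 281 members had the full 324 bp.

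The 327 peaks lay in 220 genes, of which 213 were protein-coding and 7 noncoding. A single peak was found in 157 genes, 2 in 39, and 3 or more in 24, which together held 92. The corepressor gene sbb held 7 peaks with signals of 69.1 to 339.5, 4 of them in both replicates' lists. Raf, the kinase of the Ras and MAP kinase cascade, held 6 with signals of 104.8, 117.3, 133.2, 148.4, 200.9 and 247.3, all in both lists. The transcription factor gene apt also held 6, from 51.5 to 160.9, of which 1 was in both lists. Raf and apt thus had equal numbers of peaks but did not have equal support. Ptp61F, kirre, an adhesion molecule of myoblast fusion, and CG1677 held 5 each, with highest signals of 357.1, 262.5 and 145.4. None of the 5 in CG1677 was in both lists. They lie within 1 long gene whose sequence also holds other genes, and brk, the BMP pathway repressor, has the nearest start site to 2 of them. With 4 peaks each came pnt, the Ets activator of receptor tyrosine kinase signalling, the corepressor gene Smr, lncRNA:CR32773 and lncRNA:flam, the piRNA cluster that silences transposable elements in the ovary. Of the 3 members that overlap an annotated transposable element, 2 were in lncRNA:flam, with signals of 202.8 and 115.05, and 1 in chn, so the reads behind them may map to more than 1 place. The genes with 3 peaks were Tlk, babos, fz, Hr4, cpo, CG42238, E2f1, mam, RapGAP1, pyd, raskol, Snoo, jing and bowl. All 3 peaks in the nuclear receptor gene Hr4 (107.5, 212.6 and 283.9) and in RapGAP1 (100.2, 105.5 and 169.0) were in both lists, and none of those in Snoo and bowl was. Of all members, 93 had another member within 5000 bp.

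**Figure D3:**
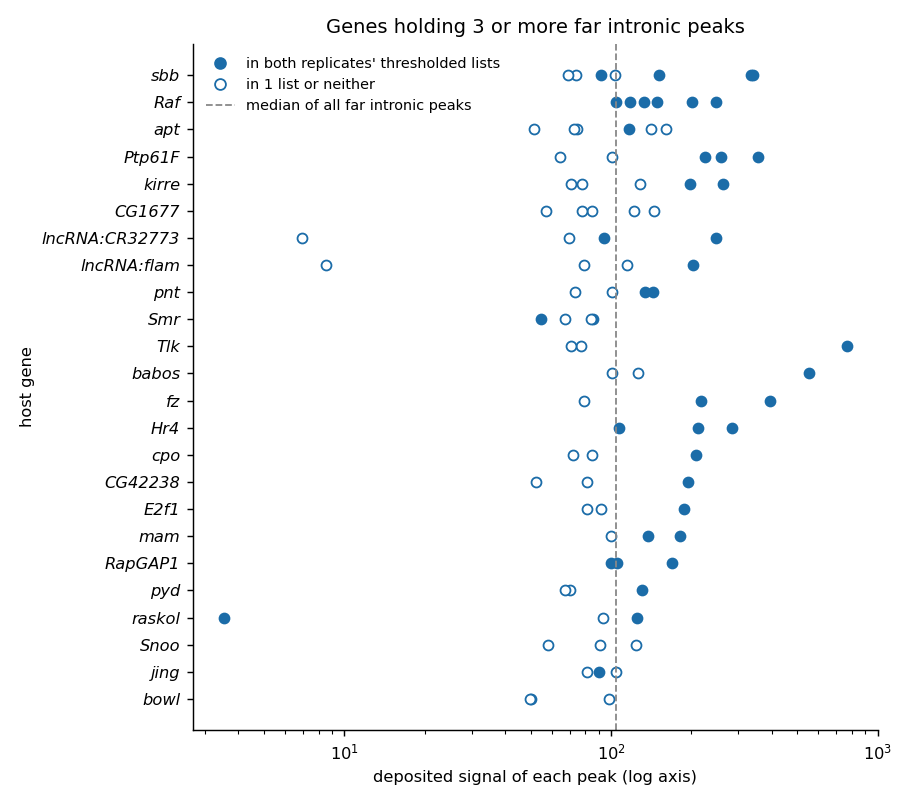
Deposited signal of each far intronic peak (log axis) in the 24 genes that hold 3 or more. Filled points are in the thresholded lists of both replicates, open points in 1 or neither, and the dashed line is the median of all members, 104.8. All 6 peaks in Raf are filled and at or above the median, and only 1 of 6 in apt is filled.

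Peaks of this kind need long genes, and their hosts were long. The median host was 32.8 kb, and the median of the 4224 protein-coding genes with any eligible intronic sequence 8.90 kb. Of these 4224 genes, 213 hosted a peak, or 5.04%. When these genes were split into 4 classes of about equal size by eligible sequence, 14.96% of the class with the most were hosts and 0% of that with the least. Of the 213 protein-coding hosts, 42 also had a TSS peak (19.7%, 14.6 to 25.7), beside 13.8% of all eligible genes. In the class with the most eligible sequence 19.6% of hosts had one, beside 12.6% of the class. Of the 124 protein-coding hosts of a member above the list's median signal, 24 had one (19.4%, 12.8 to 27.4). The nearest start site belonged to a gene that does not contain the peak in 119 members, and 14 members lay in more than 1 gene.

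Gene groups were described by counts alone, because the lists were drawn up with earlier results of these data known, and each count is to be read beside the 5.04% of all eligible genes that are hosts. That share rose to 14.96% in the class with the most eligible sequence, and the lists were not matched for eligible sequence. Density also differed between the classes, at 0, 3.93, 13.2 and 6.71 peaks per Mb from the least eligible sequence to the most. Of 39 eligible genes of the receptor tyrosine kinase and Ras pathway 4 were hosts (10.3%, 2.87 to 24.2), an interval that includes 5.04%. These were aop, Raf, pnt and S (Star, which acts in the release of EGF receptor ligands). They held 13 peaks, 6 of them in Raf and 4 in pnt. That is 31.4 per Mb of the list's eligible sequence, against 7.72 over all eligible sequence. The Polycomb, trithorax and chromatin list had 8 hosts of 50 with 14 peaks (43.4 per Mb), led by Tlk at 766.7, trx, a histone methyltransferase, at 223.3, and gpp, the Dot1 methyltransferase, at 185.8. In the Notch, Wnt, Hedgehog, BMP and Hippo list 11 of 55 genes held 19 peaks (27.5 per Mb), the highest in fz, cv-2 (350.9) and ex, an upstream Hippo component (184.4). Of 59 long-intron transcriptional regulators 13 held 29 peaks (19.9 per Mb), led by aop, sbb and grh. Of 27 ecdysone and nuclear receptor genes 5 held 10 (15.5 per Mb), led by Hr3 (364.9), Hr4 (283.9) and Kr-h1 (156.4). Embryonic patterning factors had 6 hosts of 44 with 9 peaks (11.9 per Mb), the highest being the Hox gene Antp (195.6), its cofactor hth (162.6) and the Hox gene Ubx (125.02). Axon guidance and adhesion genes had 14 hosts of 76 with 21 peaks, or 7.01 per Mb, close to the density over all eligible sequence, led by kirre (262.5) and the integrin subunits mew (260.7) and if (170.1). RNA-binding genes had 4 of 41 with 6 peaks (4.06 per Mb), led by cpo (208.7), Rbfox1 (167.0) and shep (136.1). Ion channel and synapse genes had 3 hosts of 69, a share of 4.35% (0.906 to 12.2) near that of all eligible genes, with 4 peaks (2.36 per Mb) in the cAMP phosphodiesterase gene dnc (258.1), SKIP (163.1) and Ih, a channel gene (83.5). None of 11 eligible insulator and promoter-binding protein genes was a host, but these hold little eligible sequence. A gene can stand in more than 1 list, as aop and pnt do.

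Within introns the peaks were unevenly spread. Eligible sequence, meaning intronic bases over 2000 bp from any TSS, made up 42.3 Mb or 30.8% of the arms, and held 7.72 peaks per Mb, against 19.0 per Mb in the rest of the arms. Density was 13.6 per Mb at 2 to 3 kb from a TSS, 12.7 at 3 to 5 kb, 8.37 at 5 to 10 kb, 4.38 at 10 to 20 kb and 2.56 beyond 20 kb. The median distance was 4762 bp, the quartiles 3149 and 8836 bp, and the farthest member lay 136961 bp from a TSS, in lncRNA:flam. Signal showed no such slope, the median being 114.0 in the nearest class and 88.6 in the farthest, with 114.5 at 10 to 20 kb. First introns held 203 members (62.1%, 56.6 to 67.4) and 37.2% of eligible bases. First introns begin after the first exon and hold more of the bases near a start site, so the shares are also given by distance. They were 72.6% against 54.4% of bases at 2 to 3 kb, 64.6% against 49.1% at 3 to 5 kb, 52.7% against 42.6% at 5 to 10 kb, and 59.7% (46.4 to 71.9) against 23.7% beyond 10 kb. At 5 to 10 kb the binomial interval of the members' share, 42.1 to 63.1, includes the share of bases.

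The X chromosome held more of these peaks than its sequence would give. It carried 90 members (27.5%, 22.8 to 32.7), and 18.9% of eligible bases, a density of 11.2 per Mb (9.04 to 13.8, exact Poisson 95% interval). The large autosomal arms lay between 6.68 and 7.85 per Mb, and arms 4 and Y held 0, which at their size allows up to 8.28 and 3.94 per Mb. Of TSS peaks 15.5% were on X, an odds ratio of 2.07 against them (1.53 to 2.79, adjusted p = 2.99e-06, Fisher's exact test). Intergenic distal peaks were lower still at 8.55% (odds ratio 4.06, 2.50 to 6.76, adjusted p = 1.13e-09, Fisher's exact test), whereas intronic peaks nearer a TSS had 26.4% on X, an odds ratio of 1.06 (0.726 to 1.55). The excess over TSS peaks was present in each replicate's own list, with 28.2% against 14.8% in replicate 1 and 29.3% against 16.2% in replicate 2. Those lists share many sites with the members. By distance, the density on X was 19.9 per Mb against 12.1 on the other arms at 2 to 3 kb, 19.5 against 10.9 at 3 to 5 kb, 8.45 against 8.34 at 5 to 10 kb, and 6.10 against 2.88 beyond 10 kb. Median signal on X was 105.1 and on the other large arms 97.5 to 109.8. Among genes with 4 or more members, Raf (6), kirre (5), CG1677 (5), lncRNA:CR32773 (4), lncRNA:flam (4) and Smr (4) lie on X. Those on other arms are sbb (7), apt (6), Ptp61F (5) and pnt (4). The intervals and tests count peaks within 1 gene as if they were independent. Mappability, X copy number and the distribution of active genes were not measured here, and their part in the X share was not tested.

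**Figure D4:**
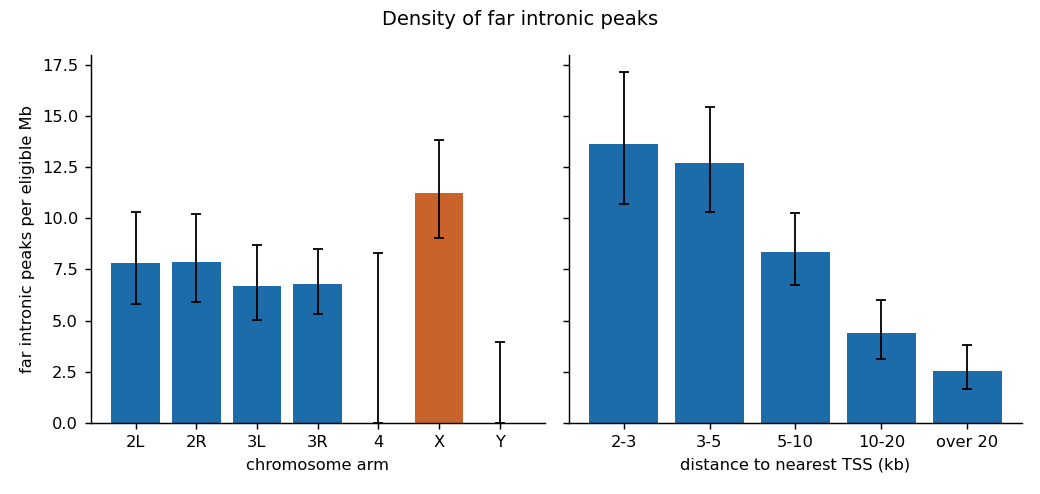
Far intronic peaks per Mb of eligible sequence by chromosome arm (left, X in orange) and by distance to the nearest TSS (right), with exact Poisson 95% intervals. X stands at 11.2 per Mb above the other arms, and density falls from 13.6 at 2 to 3 kb to 2.56 beyond 20 kb.

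The replicates did not support far intronic peaks equally. Of the 327 members 141 overlapped the thresholded lists of both replicates (43.1%, 37.7 to 48.7), 95 that of replicate 1 only, 41 that of replicate 2 only, and 50 neither. Replicate 2's list held 182 of them (55.7%) and 67.2% of TSS peaks, an odds ratio of 0.613 (0.474 to 0.794, adjusted p = 4.26e-04, Fisher's exact test). Replicate 1's list held 236 (72.2%) and 67.1% of TSS peaks (odds ratio 1.27, 0.963 to 1.69, adjusted p = 0.138, Fisher's exact test). Among members called in 1 replicate, 69.9% were called in replicate 1, against 49.9% of TSS peaks (192 and 193 peaks), an odds ratio of 2.33 (1.51 to 3.63, adjusted p = 1.71e-04 by Fisher's exact test over 3 comparisons added after the counts were seen). For intronic peaks nearer a TSS that share was 51.5% (adjusted p = 0.00704, Fisher's exact test), and for intergenic distal peaks 76.4% (adjusted p = 0.264, Fisher's exact test). Far intronic and intergenic distal peaks thus both had more members called in replicate 1 alone than in replicate 2 alone. The share in both lists was 50.4% for TSS peaks, an odds ratio of 0.746 (0.578 to 0.963) with an adjusted p of 0.0615 by Fisher's exact test. It passed the threshold in the less strict list (0.630, adjusted p = 1.68e-04, Fisher's exact test) and with other distance limits. It missed the threshold when summits had to lie within 100 bp of each other (0.797, adjusted p = 0.235, Fisher's exact test). What differed between the embryo collections or libraries of the replicates is not recorded, and the lean cannot be told apart from such a difference.

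In the replicates' ranked lists, which are long and were matched to make the joint list, a peak was present in both at 323 of the 327 members, with the summits of replicates 1 and 2 a median of 24 bp apart (26 bp for TSS peaks). The median rank was 1008 in replicate 1 and 1459 in replicate 2, and for TSS peaks 1315 and 1020. The rank was better in replicate 1 for 212 of the 323 members (65.6%) and for 39.6% of TSS peaks. Ranks of members in the replicates had a Spearman coefficient of 0.406 and those of TSS peaks 0.616, as a description over peaks that share a library and a peak caller. Members with a joint signal above the median could rank far apart: a peak in CG1677 with a signal of 145.4 was ranked 230 in replicate 1 and 8232 in replicate 2, and 1 in Dys, the dystrophin gene, with 168.9 was ranked 5589 and 260, both picked after their ranks were seen.

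**Figure D5:**
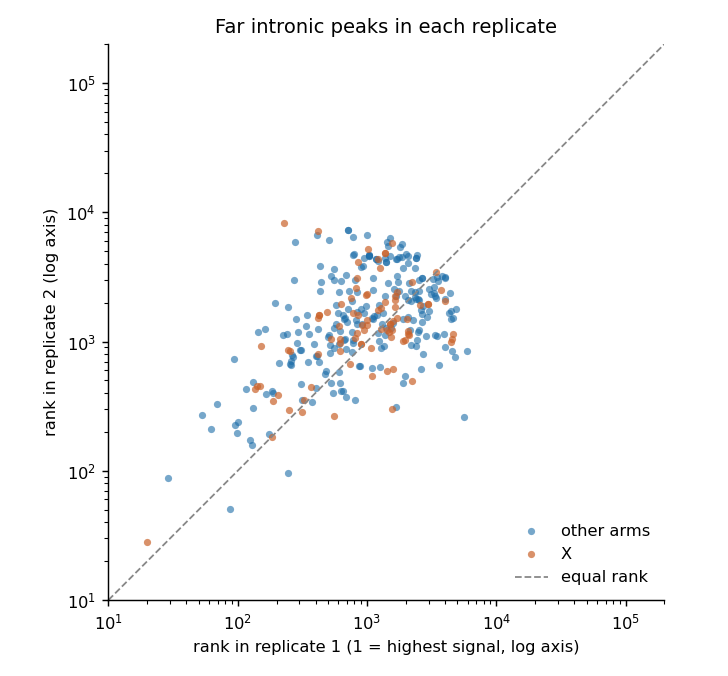
Rank of each of 323 far intronic peaks in the ranked lists of replicate 1 and replicate 2 (log axes, 1 is the highest signal), with X in orange and equal rank as a dashed line. Most points lie above the line, 212 of 323 having the better rank in replicate 1.

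The less strict joint list held 461 far intronic peaks of 2825 (16.3%), replicate 1's own list 344 of 1875 (18.3%) and replicate 2's 242 of 1671 (14.5%). In the unthresholded joint list the share was 28.3% of 140114, so far intronic sites made up a smaller part of the stronger peaks than of all ranked regions. It was 13% among the first 500 ranked peaks and 18.8% among the next 500.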

How the data were processed

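ChIP-seq peak lists of 2 biological replicates and of both together were taken as the authors deposited them, 8 lists in dm6 coordinates per the labels. These include 2 joint ranked lists, and the joint ranked list named in the results is 1 of them, the first as listed. The labels name neither aligner nor peak caller (not given in the sources used here). Each peak's deposited signal value has no stated unit or scale and is comparable within a list only. Read depth is unknown, and 20 columns of the joint ranked lists with no sample name were not used. Genes, exons and start sites came from Ensembl release 115 (BDGP6.54, the same assembly), leaving out 5889 transposable elements, and bases from RefSeq. Shares have exact binomial 95% intervals. Kinds of peak were compared by Fisher's exact test adjusted over 3 comparisons; summit and flank windows of 201 bp, 500 bp apart, by exact McNemar tests, with Benjamini-Hochberg adjustment over all 30 strings or all 6-mers and a threshold of 0.05, tested on simulated windows. Peaks are the units, so p-values and intervals do not measure the spread between embryos, and neighbouring peaks are not independent. Peak lists were overlapped by at least 1 bp. Genes named are hosts of the 15 highest members, all hosts of 3 or more, the 3 highest of each gene list and the pairs next to the distance limit; others were chosen after their values were seen. The planned further sequences with the fixed string of smallest p were replaced, since that string was rarer at summits. The result of 1 gene list and 1 sequence are not reported here. The members and lists were chosen with earlier results of these data known. Tests ran in SciPy 1.17.1 under Python 3.11.15 with NumPy 2.4.6, tables in pandas 2.3.3, and figures in matplotlib 3.10.9. Alternatives are given in the closing section.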

Additional observations from a re-analysis of the deposited data

How the results depend on the processing

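The members and their number follow the rule: 164 lie above the median signal, 155 over 5000 bp from a TSS and 494 when 1 TSS per gene is used, and 242 to 344 came from single replicates' lists. The odds ratio of support by both replicates, 0.746, passed the threshold in the less strict list (0.630), at 5000 bp (0.639) and 1000 bp (0.731) and with 1 TSS per gene (0.744). It missed the threshold with summits within 100 bp (0.797), above the median signal (0.679) and in merged peaks (0.766). Their adjusted p by Fisher's exact test was 0.235, 0.249 and 0.122. The odds ratio for signal above the median ran from 0.525 to 1.09 when 1 replicate was left out, a comparison added after the data were seen. Of the 30 fixed strings, 0 to 3 were called against flanks without 1 replicate, 2 in the less strict list, at 1000 bp, with 1 TSS per gene, in windows of 50 bp either side and in merged peaks, 3 with flanks 1000 bp away, and 0 above the median and at 5000 bp. Against TSS summits 3 to 9 were called without 1 replicate, 5 above the median and in narrow windows, and 4 at 5000 bp. Called 6-mers numbered 26 to 139 without 1 replicate, 31 above the median, 8 at 5000 bp, 125 at 1000 bp, 147 with 1 TSS per gene, 29 in narrow windows and 42 with distant flanks. First introns held 55.5% at 5000 bp and 68.5% at 1000 bp. Hosts with a TSS peak were 12.1% with 1 TSS per gene, and 8.87% when members and TSS peaks alike were limited to those above the median, which leaves fewer TSS peaks to count. The causes were not tested, beyond the numbers of peaks each alternative leaves. The G+C trough and the X share kept their direction and threshold in every alternative run. No paired analysis was possible because the series holds 1 group. Depth is unknown, so counts that miss a threshold cannot be set against it.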
